A study of Mus musculus with 12 samples.

Results

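The genes of the ABC transporter superfamily were examined in mouse bone marrow stem cells sorted by surface CD49. They were the genes of all probe sets that carried exactly 1 gene symbol starting with Abca, Abcb, Abcc, Abcd, Abce, Abcf or Abcg and a digit. This gave 45 of the 18193 named genes, measured by 92 of 35041 probe sets. There were 14 ABCA, 8 ABCB, 10 ABCC, 3 ABCD, 1 ABCE, 3 ABCF and 6 ABCG genes. Each gene was shown by the probe set whose mean log2 signal over the 6 samples was highest, which lay on the chip design MOE430A for 28 genes and on MOE430B for 17.

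The study compared 3 CD49+ and 3 CD49- samples of freshly sorted cells (0 h in culture). Each sample was cDNA made by PCR from a lysate of about 30 cells with an estimated purity of 97.03%, and each was hybridised to both Affymetrix chip designs, which gave 12 arrays. CD49 is the shared name of several integrin alpha subunits, and the labels do not say which one was stained, nor do they give the strain, sex or age of the mice or any genotype. The titles carry 2 prefixes, called submissions here, whose meaning the labels do not give: MZ1468 held 2 CD49+ samples (replicates 2 and 3) and 2 CD49- samples (replicates 2 and 3), and MZ1484 held 1 CD49+ sample (replicate 1) and 1 CD49- sample (replicate 1). Nothing says that the samples came from separate animals or sorts, so p-values speak only of the spread among the 6 samples, part of which may be technical. In such bulk samples, fewer cells of a type and less RNA per cell cannot be told apart.

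ABC proteins bind ATP through a conserved cassette. Most use it to move lipids, metabolites, peptides or drugs across a membrane, whereas the ABCE and ABCF proteins have no membrane-spanning part and work on ribosomes. In bone marrow, Abcg2 and the P-glycoproteins Abcb1a and Abcb1b pump fluorescent dyes out of the cell, and the dye-low "side population" defined in this way is enriched in haematopoietic stem cells. Abca1 and Abcg1 export cholesterol and restrain the proliferation of haematopoietic progenitors in mice.

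Signals were linear MAS5 values, and the brightest Bacillus control of an array, a probe set for a bacterial transcript, served as its background bound. The bound lay between 78.0 and 149 on MOE430A and between 844 and 1470 on MOE430B. By group it was 84.0 to 149 in CD49+ and 78.0 to 96.0 in CD49- samples on MOE430A. On MOE430B it was 1200 to 1470 in CD49+ and 844 to 1150 in CD49- samples. At equal signal a gene thus passed more easily in CD49- samples on MOE430B. Of 13 haematopoietic stem cell markers, 11 were measured and 7 of these were above the bound in all 6 samples. Their mean log2 level was 9.54 to 11.78 in CD49+ samples and 10.67 to 11.81 in CD49- samples. Among them Slamf1 and Fgd5 were above the bound in 0 CD49+ and 3 CD49- samples, at least 5.81-fold and 4.33-fold lower in CD49+ samples (limma adjusted p = 1 and 0.528). Megakaryocyte markers included Itga2b, which was at least 3.10-fold lower in CD49+ samples, and Vwf, which differed by -2.33 ± 0.78 (limma adjusted p = 1 for both). The groups did not overlap for any of these 4 genes, as for 8.12% of all tested genes. The lists as a whole were mixed. Of the 11 stem cell markers, 4 were higher and 7 lower in CD49+ samples. Of the 6 megakaryocyte markers, 3 were higher and 3 lower. The mean log2 level of the 6 megakaryocyte markers was 7.11 to 8.32 in CD49+ samples and 7.70 to 8.66 in CD49- samples, with 0 above the bound in all 6 samples and all 6 in at least 1. For the 7 granulocyte and monocyte markers it was 7.94 to 10.15 in CD49+ samples and 8.91 to 9.47 in CD49- samples, with Prtn3, Lyz2 and S100a8 above the bound in all 6 samples and all 7 in at least 1.

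Some markers listed for other lineages were also above the bound, and others of the same lists were not. Of 5 B cell markers, Cd79b was above the bound in all 6 samples and Cd79a in 3, while Pax5, Ebf1 and Vpreb1 were above it in none. Of 5 erythroid markers, Epor was above it in 4 samples and Klf1 in 1, and Hba-a1, Alas2 and Car1 in none. Of 4 T cell markers, Cd3d and Thy1 were above it in 2 samples each, Cd3g in 1 and Cd3e in none. Of 6 stromal and endothelial markers, Col1a1 was above it in 5 samples, Cdh5 in 2, Cxcl12 in 1, and Pdgfrb, Pecam1 and Lepr in none. The mean log2 level in CD49+ and CD49- samples was 8.51 to 9.01 and 8.06 to 8.68 for the B cell list, 5.79 to 6.01 and 5.44 to 6.11 for the erythroid list, 6.18 to 6.64 and 5.62 to 6.51 for the T cell list, and 6.87 to 7.21 and 6.70 to 7.54 for the stromal list. The ratio of the 3′ to the 5′ beta-actin control probe sets, which rises with RNA or cDNA shortening, was 7.48 to 19.8 on MOE430A and 11.4 to 14.7 on MOE430B in CD49+ samples, against 2.63 to 11.0 and 3.26 to 9.45 in CD49- samples. The part of these markers and of the ratio in the results below was not tested.

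A set of 9 ABC genes was above the bound in all 6 samples. They were Abca7, Abcb4, Abcb6, Abcc3, Abcc4, Abce1, Abcf1, Abcf3 and Abcg2, which made up 20% of the family, against 26.4% of all named genes. A further 18 were above it in 1 to 5 samples and 18 (40%) in none, against 29.1% of all named genes in none. By subfamily, genes above the bound in all 6 samples were 1 of 14 ABCA, 2 of 8 ABCB, 2 of 10 ABCC, 0 of 3 ABCD, the single ABCE, 2 of 3 ABCF and 1 of 6 ABCG genes. Per sample, 14, 16 and 17 of the 45 genes passed the bound in CD49+ replicates 1, 2 and 3, against 17, 20 and 20 in CD49- replicates 1, 2 and 3. Over all named genes the shares were 41.3% to 49.8% in CD49+ samples and 49.6% to 58.5% in CD49- samples. For the family as for all genes, the CD49+ range met the CD49- range at its upper end. The part of the higher MOE430B bounds of the CD49+ samples in these counts was not tested.

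The 18 genes above the bound in no sample were Abca1, Abca6, Abca8a, Abca8b, Abca12, Abca13, Abca14, Abca16, Abcb1b, Abcb11, Abcc2, Abcc6, Abcc9, Abcc12, Abcd3, Abcg3, Abcg5 and Abcg8. Several of these are known chiefly from other organs, such as Abcb11 and Abcc2, which export bile salts and conjugates from hepatocytes, and Abcg5 and Abcg8, which together export plant sterols. Their signals ran between 2.38 and 115 for the 9 genes shown on MOE430A and between 58.8 and 981 for the 9 shown on MOE430B. Of the 17 genes shown on MOE430B, 8 also had a probe set on MOE430A. For 5 of these (Abcb1b, Abcc5, Abcc8, Abcd3 and Abcg1) a MOE430A probe set passed its lower bound on at least 1 array. Counting any probe set of a gene, 10 genes were above the bound in all 6 samples, 29 in at least 1 sample and 16 in none.

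**Figure D1:**
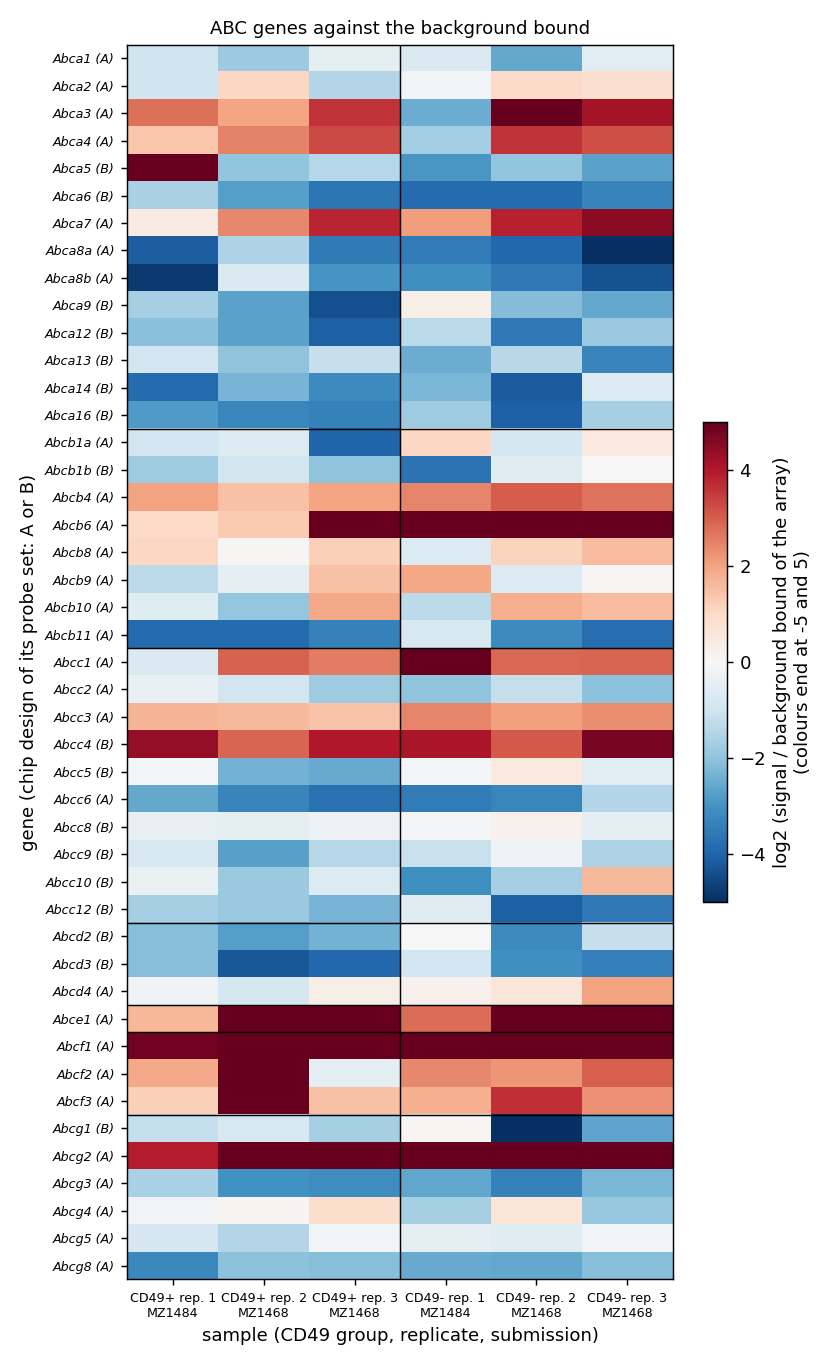
Log2 of signal over the background bound for the 45 ABC genes (vertical axis, grouped by subfamily, with the chip design A or B in brackets) in the 3 CD49+ samples (left) and the 3 CD49- samples (right). Red lies above the bound of the array and blue below it; 9 genes are red in every sample and 18 in none.

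In all, 22 ABC genes passed the filter on mean signal and were tested between CD49+ and CD49- samples with limma, within a fit over all probe sets of each chip design. No ABC gene passed an adjusted p of 0.05, and their adjusted p-values were all 0.999 or 1. None had an unadjusted p under 0.05 either. Over the 11807 genes tested, 0% passed the adjusted threshold and 2.93% had an unadjusted p under 0.05. In 1 of the 22 genes (Abca5, higher in CD49+) the groups did not overlap, against 8.12% of all tested genes. The differences had no common direction: 22 of the 45 genes were higher and 23 lower in CD49+ samples, with a median of -0.03 on the log2 scale, against 0.01 over all named genes.

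Among the efflux pumps, Abcg2, the breast cancer resistance protein that marks the side population, was far above the bound in every sample. Its signals were 2239, 6531 and 7201 in CD49+ replicates 1, 2 and 3, against 8613, 5830 and 6760 in CD49- replicates 1, 2 and 3. The groups overlapped, and only CD49+ replicate 1 stood below the other samples. The difference was -0.56 ± 0.62 on the log2 scale (CD49+ minus CD49-, moderated SE of limma, n = 3 each, as for all CD49 differences below). In MZ1484 it amounted to -1.93 and in MZ1468 to 0.13.

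Abcc4 exports cyclic nucleotides and prostaglandins. Its MOE430B signals were 25031, 10999 and 21249 in CD49+ samples, against 14110, 9525 and 22782 in CD49- samples. Every value was several times the bound of its array, the groups overlapped throughout, and replicate 2 was the dimmest of both groups. The difference was 0.31 ± 0.77.

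Abcc1, which exports glutathione conjugates and leukotriene C4, had signals of 89.0, 779 and 493 in CD49+ samples, against 4141, 566 and 609 in CD49- samples. The MZ1484 pair held both extremes, with the CD49+ sample under its bound and the CD49- sample the brightest of all 6. The difference was -1.67 ± 1.27, made up of -5.17 within MZ1484 and 0.08 within MZ1468. A second Abcc1 probe set passed the bound in CD49- replicate 1 only and differed by 0.12. Abcc3, an exporter of bile salts and glucuronides, varied little: 486, 308 and 226 in CD49+ samples, against 523, 321 and 411 in CD49- samples. Its difference was -0.32 ± 0.80, and 0.14 after quantile normalization between arrays.

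The P-glycoprotein genes, close copies of each other whose cross-hybridisation was not tested, differed by probe set. Abcb1a gave 76.2, 61.8 and 5.17 in CD49+ samples, against 198, 42.0 and 114 in CD49- samples. It passed the bound in 0 CD49+ samples and in CD49- replicates 1 and 3, and it was too dim to be tested. For Abcb1b the representing MOE430B probe set gave 354, 774 and 323 in CD49+ samples, against 65.0, 751 and 847 in CD49- samples. All 6 values lay under the bound, so neither group had a measured level there (difference 0.07 ± 0.70).

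The MOE430A probe set of Abcb1b read differently. It gave 664, 593 and 233 in CD49+ samples, against 63.2, 289 and 91.5 in CD49- samples, and passed the bound in all 3 CD49+ samples and in CD49- replicates 2 and 3. CD49+ replicates 1 and 2 were the brightest, but CD49+ replicate 3 lay below CD49- replicate 2. Its difference was 1.68 ± 0.81 (limma adjusted p = 1). Abcb4, which flips phosphatidylcholine into bile, gave 601, 278 and 330 in CD49+ samples, against 528, 633 and 536 in CD49- samples (difference -0.53 ± 0.85). Its CD49+ replicate 1 was level with the CD49- samples and the other two CD49+ samples were dimmer.

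Of the remaining ABCC genes, Abcc5, Abcc8 and Abcc10 were each above the MOE430B bound in 1 sample only, a CD49- sample in each case. Their differences were -0.85 ± 0.60, 0.17 ± 0.39 and 0.26 ± 0.89. The bound was lower in CD49- samples. Abcc5 at 1134.5 in CD49+ replicate 1 missed its bound of 1203 but exceeded those of CD49- replicates 1 and 3 (844 and 850). Abcc8 and Abcc9 encode the regulatory sulfonylurea receptors of ATP-sensitive potassium channels and are not pumps. Abcc9 was under the bound throughout, with a difference of -0.13 ± 0.53.

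**Figure D2:**
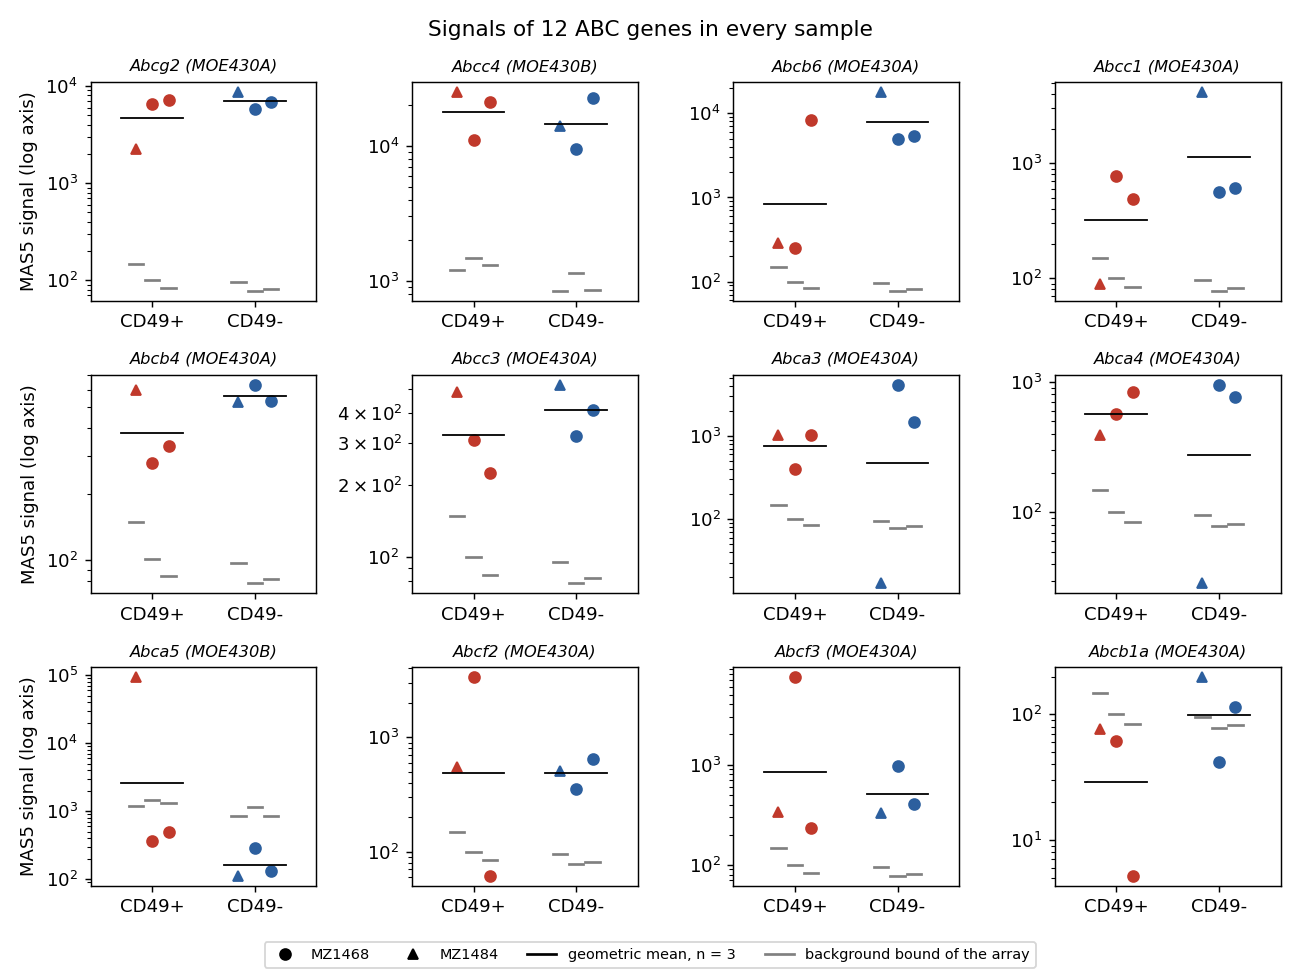
MAS5 signals (log axis) of 12 ABC genes in the 3 CD49+ samples (red, left) and the 3 CD49- samples (blue, right). Circles are MZ1468 and triangles MZ1484 samples, black lines are geometric means, and grey dashes are each array's background bound; Abca5 in CD49+ replicate 1 (92749) and Abcf3 in CD49+ replicate 2 (7436) stand apart from the rest of their groups.

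The lipid exporters of the ABCA subfamily and Abcg1 were mostly dim. Abca1, which loads cholesterol onto apolipoprotein A-I, gave 74.9, 28.3 and 59.5 in CD49+ samples, against 58.8, 13.3 and 57.3 in CD49- samples. No value passed the bound, so neither group had a measured level. Abcg1, which loads cholesterol onto HDL, gave 523, 843 and 414 in CD49+ samples, against 897, 31.6 and 138 in CD49- samples on MOE430B. Of these 6 values only that of CD49- replicate 1 passed the bound. The MOE430A probe set of Abcg1 passed in CD49+ replicates 2 and 3 and in all 3 CD49- samples, with the opposite sign: 68.3, 147 and 147 in CD49+ samples, against 150, 226 and 125 in CD49- samples (difference -0.42 ± 0.53).

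Abca7, a phospholipid transporter involved in phagocytosis, was above the bound throughout, with 199, 528 and 1177 in CD49+ samples, against 404, 1108 and 1868 in CD49- samples. Within each submission the CD49+ samples had the lower mean (by -0.84 in MZ1468 and -0.93 in MZ1484), but the difference of -0.87 ± 1.13 did not exceed its error. Abca3 packs surfactant lipid into lamellar bodies in lung, and its signals were 1011, 398 and 1033 in CD49+ samples, against 17.0, 4106 and 1478 in CD49- samples. The CD49- samples thus held both the highest and the lowest value, and the difference was 0.26 ± 1.74.

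Abca4, the retinoid flippase of photoreceptors, gave 394, 563 and 829 in CD49+ samples, against 28.7, 949 and 769 in CD49- samples. All samples but CD49- replicate 1 were above the bound. The difference was 0.77 ± 1.28, and it was -0.31 within MZ1468. In Abca5, a lysosomal and late endosomal ABCA protein, 1 sample decided the result. It gave 92749, 371 and 495 in CD49+ samples, against 113, 292 and 131 in CD49- samples.

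Only CD49+ replicate 1 of Abca5 passed the MOE430B bound, and it was 187 times as bright as the next sample. A second Abca5 probe set on MOE430B did not share this peak: it gave 554, 383 and 920 in CD49+ samples, against 569, 70.2 and 560 in CD49- samples, all under the bound and overlapping (difference 0.63 ± 0.61). In the first probe set, the lowest CD49+ value exceeded the highest CD49- value, but both were under the bound. The fitted difference was 3.33 ± 1.93. All CD49- values were under the bound, and with each CD49- array set at its bound the CD49+ mean was 2.89-fold higher. That figure rests on CD49+ replicate 1. It is no lower limit for the group, since CD49+ replicates 2 and 3 were under their bounds too. Of the other ABCA genes, Abca2 was above the bound in 3 samples and Abca9 in 1.

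Among the mitochondrial and haem-related genes, Abcb6 had the second largest fitted difference of the family in size. It encodes a porphyrin transporter found in mitochondria and lysosomes. Its signals were 290, 248 and 8279 in CD49+ samples, against 17768, 5002 and 5437 in CD49- samples. CD49+ replicates 1 and 2 were the dimmest samples, while CD49+ replicate 3 lay within the CD49- range, so the groups overlapped. The difference was -3.13 ± 1.45 (limma adjusted p = 1), with -1.79 within MZ1468 and -5.81 within MZ1484.

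Abcb10, an inner mitochondrial membrane protein that is needed for haem synthesis in mouse erythroid cells, gave 98.5, 26.5 and 315 in CD49+ samples, against 38.4, 277 and 238 in CD49- samples. The bound was passed by CD49+ replicate 3 and CD49- replicates 2 and 3 (difference -0.40 ± 0.88). Abcb8, a transporter of the inner mitochondrial membrane, gave 304, 104 and 190 in CD49+ samples, against 59.7, 170 and 240 in CD49- samples (difference 0.35 ± 0.67). Its sign turned within MZ1468, at -0.44. Abcb9, a lysosomal peptide transporter, passed the bound in CD49+ replicate 3 and in 2 CD49- samples and was too dim to be tested.

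The ABCD genes, which serve peroxisomes and lysosomes, were dim. Abcd4, which works in lysosomal export of vitamin B12 (known from human cells), gave 130, 56.3 and 103 in CD49+ samples, against 111, 119 and 326 in CD49- samples. It passed the bound in 1 CD49+ sample and 3 CD49- samples, with a difference of -0.69 ± 0.57. Of the peroxisomal fatty acid importers, Abcd2 passed the bound only in CD49- replicate 1, and Abcd3 passed only on MOE430A, where it gave 115, 85.5 and 273 in CD49+ samples, against 14.6, 145 and 240 in CD49- samples. In the ABCG subfamily, Abcg4 passed the bound in 2 CD49+ samples and 1 CD49- sample.

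Of the 4 cytosolic ABCE and ABCF genes, 3 were above the bound in every sample. Abce1, which splits ribosomes after termination, gave 475, 6314 and 3600 in CD49+ samples, against 675, 3335 and 3272 in CD49- samples (difference 0.19 ± 1.26). Abcf1, which binds the initiation factor eIF2 and promotes translation initiation, gave 4166, 14605 and 12310 in CD49+ samples, against 7192, 14150 and 12775 in CD49- samples (difference -0.26 ± 0.56). In both genes the dim sample of each group was replicate 1, the MZ1484 sample.

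Abcf2 and Abcf3, less studied members of the same subfamily, were bright in CD49+ replicate 2. Abcf2 gave 546, 3352 and 61.5 in CD49+ samples, against 512, 356 and 643 in CD49- samples (difference 0.10 ± 1.41). Abcf3 gave 340, 7436 and 231 in CD49+ samples, against 331, 968 and 402 in CD49- samples (difference 0.74 ± 1.48). In both genes the other 2 CD49+ samples did not exceed the highest CD49- sample. Without CD49+ replicate 2 the difference was -1.20 for Abcf2 and -0.80 for Abcf3. A second Abcf2 probe set did not share the peak, with 33.9, 30.6 and 203 in CD49+ samples, against 11.8, 23.7 and 83.1 in CD49- samples. Nor did a second Abcf3 probe set: it gave 156, 85.3 and 150 in CD49+ samples, against 21.0, 594 and 205 in CD49- samples.

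The CD49 difference was next set out within each submission. It had the same sign in MZ1468 and MZ1484 for 22 of the 45 genes, 11 higher in CD49+ in both and 11 lower in both, and for 9 of the 22 tested genes. A limma fit with an interaction term called 0 ABC genes, with a smallest adjusted p of 0.117, against 1.36% of all tested genes. Among the 22 tested genes, 4 (Abca3, Abca5, Abcc1 and Abcg2) had an unadjusted interaction p under 0.05, or 18.2%, against 18.3% of all tested genes, which is the background share. For these genes the CD49 difference in MZ1484 was 4.56, 8.52, -5.17 and -1.93 in that order, and in MZ1468 it was -1.89, 0.73, 0.08 and 0.13. Since MZ1484 had 1 sample of each group, its own spread is unknown.

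**Figure D3:**
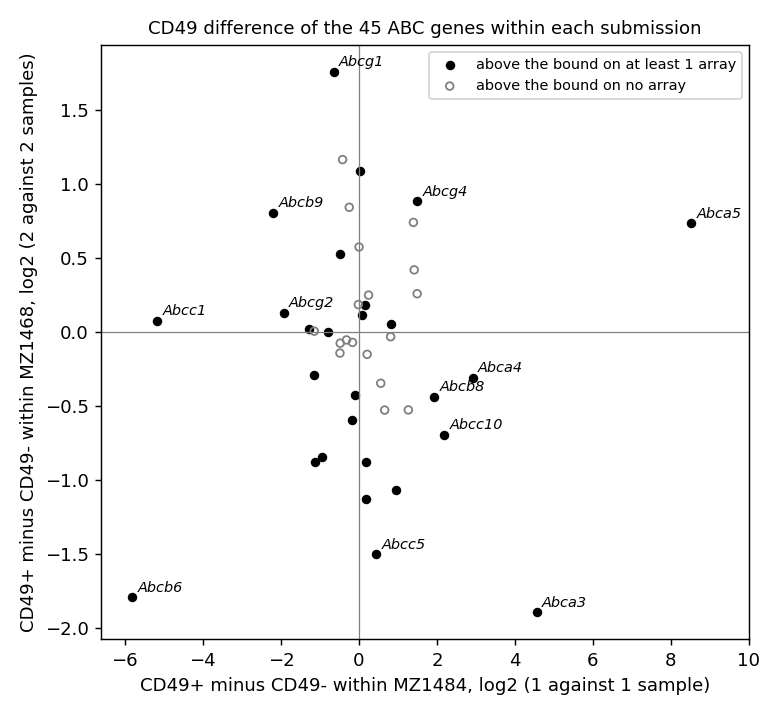
CD49+ minus CD49- difference (log2) of each of the 45 ABC genes within MZ1468 (vertical axis, 2 against 2 samples) and within MZ1484 (horizontal axis, 1 against 1). Filled points were above the background bound on at least 1 array and open points on none; 22 points lie in the quadrants where both signs are equal, and the horizontal axis spans a wider range than the vertical one.

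In the comparison of the submissions, with CD49 group in the model, Abce1 and Abcf1 came closest to a call. No ABC gene passed an adjusted p of 0.05, against 4.05% of all tested genes and 7.59% of those shown on MOE430A. Only 3 ABC genes (Abcf1, Abce1 and Abca4) had an unadjusted p under 0.05, or 13.6% of 22, against 22.7% of all tested genes. A further count was of groups that did not overlap: 4 (Abca4, Abca7, Abce1 and Abcf1) were higher in all 4 MZ1468 samples than in both MZ1484 samples, against 19.8% of all tested genes, and 1 (Abcc3) was lower in all 4, against 13.5%. Both shares of the family, 18.2% and 4.55% of 22, lay under those of all tested genes. Its 45 differences had a median of -0.12, with 20 higher and 25 lower in MZ1468, against a median of 0.02 over all named genes. The 22 tested genes leaned the other way, with 14 higher and 8 lower and a median of 0.23, against 0.21 over all tested genes. By chip design, 16 were higher and 12 lower on MOE430A (median 0.08), and 4 higher and 13 lower on MOE430B (median -0.34).

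Abce1 and Abcf1 had the smallest p-values. Abce1 was higher in MZ1468 by 2.75 ± 0.71 on the log2 scale (moderated SE, n = 4 against 2; limma adjusted p = 0.0709). A second MOE430A probe set gave the same order: 3007 and 1784 (CD49+) and 1055 and 1808 (CD49-) in MZ1468 samples, against 211 (CD49+) and 358 (CD49-) in MZ1484 samples, a difference of 2.59 ± 0.82 (limma adjusted p = 0.113). Its MOE430B probe set passed the bound in 1 sample only, CD49- replicate 1, and did not share the order.

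Abcf1 was higher in MZ1468 by 1.29 ± 0.32 (limma adjusted p = 0.0622). A second probe set of Abcf1 differed by 1.48 ± 0.34 (limma adjusted p = 0.0524), while another gave 0.65 ± 0.79 with overlapping groups. The 2 Abcf1 probe sets that differed carry the suffix s_at, which Affymetrix gives to probe sets that can match several transcripts. The one at 0.65 does not. The representing Abce1 probe set carries this suffix too, and its second MOE430A probe set does not. The remaining Abcf1 probe sets were too dim to be tested and had the opposite sign (-0.40, -0.22 and -0.90). The one at -0.90 also carries s_at, and its groups overlapped. The adjusted p of Abcf1 fell to 0.0395 after quantile normalization. Without CD49- replicate 1, a MZ1484 sample, 3 genes (Abca5, Abce1 and Abcf1) passed the threshold, with a smallest adjusted p of 0.0268. That fit left 1 sample in MZ1484, which was assumed to vary like the MZ1468 samples, and for Abca5 it was the sample with the signal of 92749. Without the CD49 group in the model, 2 (Abce1 and Abcf1) passed.

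Abca4 was higher in MZ1468 by 2.37 ± 0.93 (limma adjusted p = 0.174) and Abca7 by 1.81 ± 0.78 (limma adjusted p = 0.204). Abca3 differed by 2.60 ± 1.55 and Abcb10 by 1.11 ± 0.90. Abcc3 was lower in MZ1468, by -0.66 ± 0.64. Abca5 had a fitted difference of -3.46 ± 1.67, which rested on CD49+ replicate 1: without that sample it was 0.44.

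Other measures moved with the submission. The beta-actin 3′ to 5′ ratio on MOE430A was 8.83 to 19.8 in MZ1468 samples and 2.63 to 7.48 in MZ1484 samples. On MOE430B the ranges overlapped, at 6.52 to 14.7 in MZ1468 samples and 3.26 to 11.7 in MZ1484 samples. The mean log2 level of the 11 stem cell markers was 9.54 to 11.16 in MZ1468 samples and 11.78 to 11.81 in MZ1484 samples, with 10 of the 11 lower in MZ1468 and 0 called. Of the 7 granulocyte and monocyte markers, 6 were lower in MZ1468 and 0 were called, with a median difference of -0.93 and a mean log2 level of 7.94 to 8.98 in MZ1468 samples and 9.47 to 10.15 in MZ1484 samples. Lyz2 differed by -2.20 ± 0.55 and S100a9 by -2.16 ± 0.55 (limma adjusted p = 0.0639 and 0.0688). The scan days of the arrays followed the submission exactly, so day and submission cannot be told apart. The part of these measures in the Abce1 and Abcf1 differences was not tested.

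**Figure D4:**
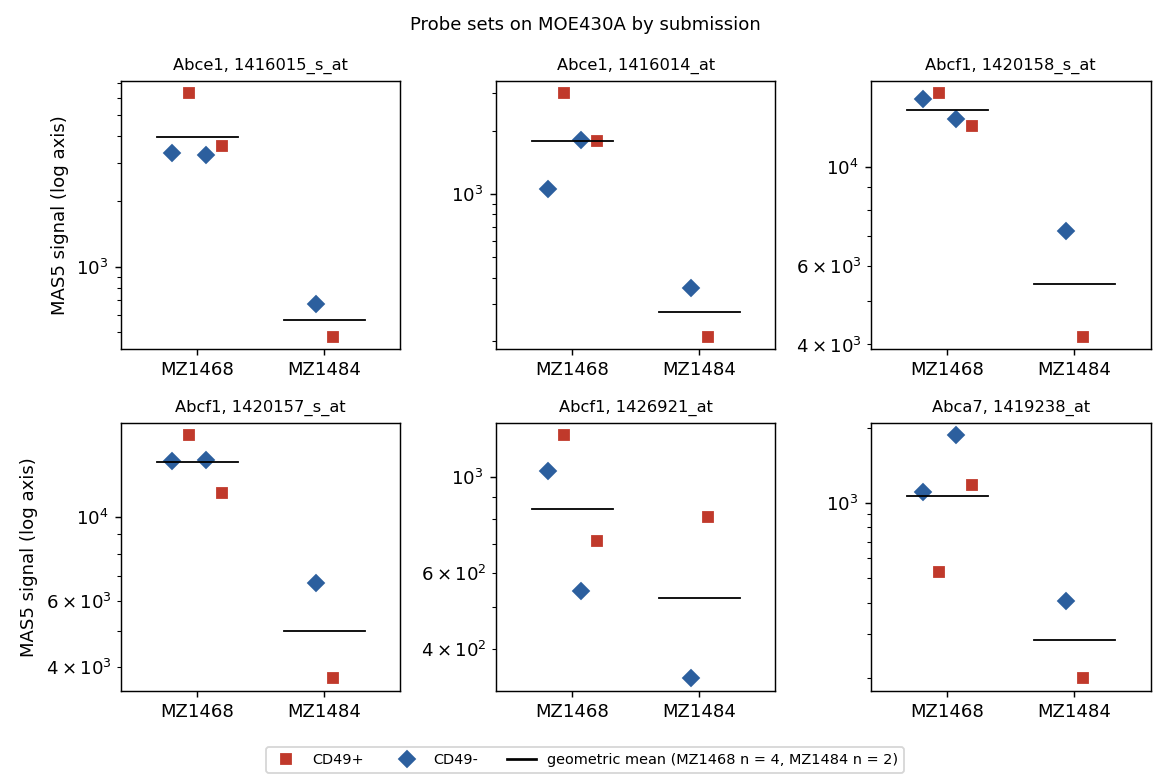
MAS5 signals (log axis) of 6 MOE430A probe sets in the 4 MZ1468 samples (left) and the 2 MZ1484 samples (right), with CD49+ samples as red squares, CD49- samples as blue diamonds and geometric means as lines. Both Abce1 probe sets, 2 of the 3 Abcf1 probe sets drawn and Abca7 are higher in every MZ1468 sample, and the groups overlap for the remaining Abcf1 probe set.

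**Figure D5:**
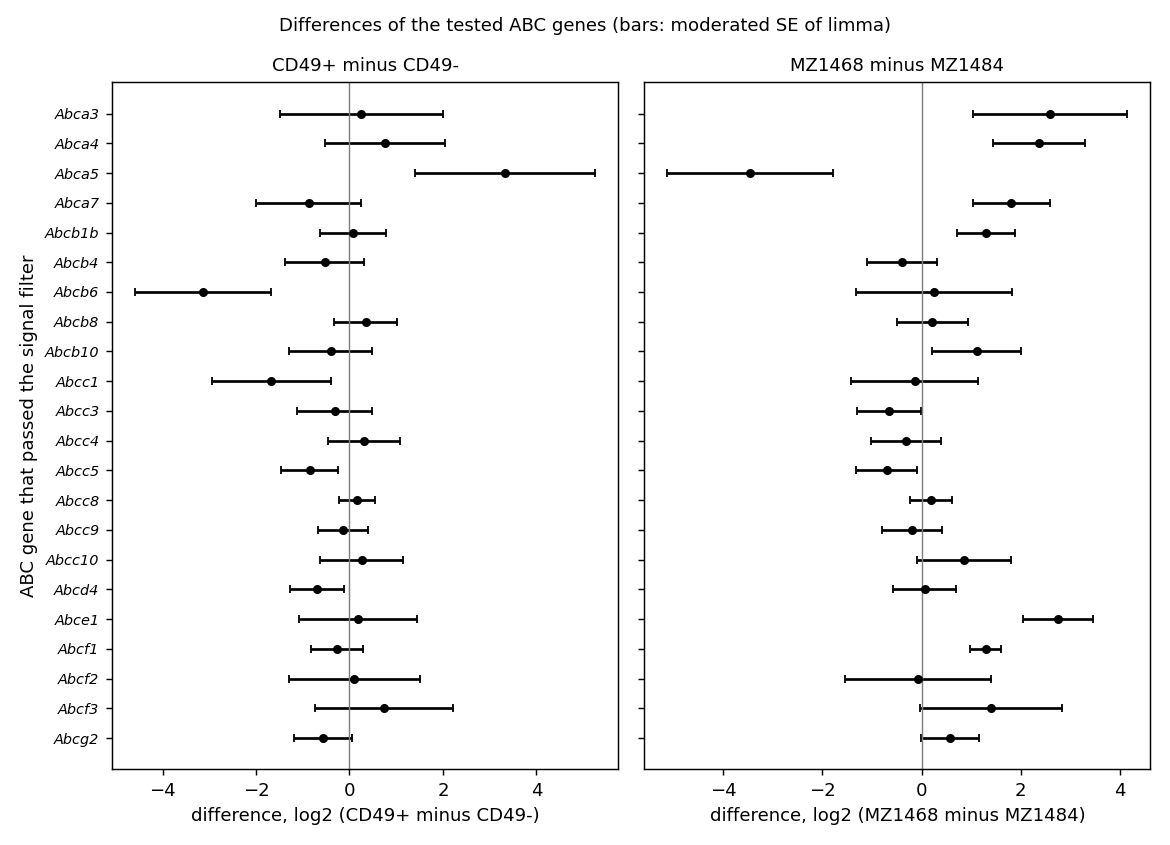
Log2 differences (points, with the moderated SE of limma as bars) of the 22 tested ABC genes for CD49+ minus CD49- (left) and MZ1468 minus MZ1484 (right). The points of Abca5 (3.33) and Abcb6 (-3.13) on the left are the farthest from 0, and Abce1 and Abcf1 on the right have the smallest adjusted p-values (0.0709 and 0.0622).

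The promoters of Abce1 and Abcf1 are given because these genes were brighter together in MZ1468. They run from 250 bases before to 50 bases after the RefSeq start of each gene (mouse build GRCm38.p6), at chr8:79711691-79711990 on the minus strand for Abce1 and at chr17:35969701-35970000 on the minus strand for Abcf1. Capitals mark matches on either strand to the cAMP response element TGACGTCA, the E-box CACGTG, the CCAAT box (CCAAT) and the GC box GGGCGG. The first of these motifs was added after the letters of Abce1 had been read.
Abce1: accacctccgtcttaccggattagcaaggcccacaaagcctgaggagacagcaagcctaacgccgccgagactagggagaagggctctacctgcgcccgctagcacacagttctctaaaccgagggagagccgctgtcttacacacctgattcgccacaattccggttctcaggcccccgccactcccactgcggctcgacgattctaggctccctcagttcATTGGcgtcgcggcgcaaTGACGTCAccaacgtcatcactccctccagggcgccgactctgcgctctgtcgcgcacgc
Abcf1: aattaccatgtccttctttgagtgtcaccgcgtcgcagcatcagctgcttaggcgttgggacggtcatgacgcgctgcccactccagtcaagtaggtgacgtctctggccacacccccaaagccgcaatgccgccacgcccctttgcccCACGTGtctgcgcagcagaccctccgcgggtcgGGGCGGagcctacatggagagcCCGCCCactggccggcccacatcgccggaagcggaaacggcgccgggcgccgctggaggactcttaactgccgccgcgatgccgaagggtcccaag
Abce1 held 1 cAMP response element and 1 CCAAT box (on the other strand), while Abcf1 held 1 E-box and 2 GC boxes, 1 on each strand, and no marked match overlapped another. The promoters thus shared none of these motifs, but both were rich in CpG, with 27 and 31 dinucleotides. The median was 7 over all 32851 promoters of the table. It was 21 over promoters of ABC genes above the bound in all 6 samples, and also 21 for those above it in some samples.

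Across the family, 42 promoters of 35 of the 45 genes were in the table. Promoters of the genes above the bound in all 6 samples (11 promoters of 8 genes) had a median of 21 CpG and 61.7% GC, and those of genes above it in no sample (18 promoters of 16 genes) had 9.5 CpG and 53.3% GC. A GC box was present in 8 of the 11 (72.7%) and in 5 of the 18 (27.8%), against 35.7% of all promoters. For genes above the bound in some samples (13 promoters of 11 genes) it was 8 (61.5%). The CCAAT box was present in 45.5% of the 11, 15.4% of the 13 and 44.4% of the 18, against 37.4% of all. The E-box was present in 5 of the 42 promoters (11.9%, in Abca1, Abca8a, Abca8b, Abcc4 and Abcf1), against 7.15% of all. The cAMP response element was present in 2 (Abce1 and Abcg2), or 4.76%, against 1.79% of all. Because that motif was added after the letters of Abce1 had been read, its shares cannot show an enrichment. Starts of 1 gene can overlap, and these matches describe letters and not binding.

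In the same fits, 6 lists of genes that work with ABC proteins were counted. None of their members was called between CD49+ and CD49- samples with limma, and no member of these 6 lists had an unadjusted p under 0.05 there. The ABC proteins with other symbols were Tap1, Tap2 and Cftr, of which Tap1, a subunit of the peptide transporter of antigen presentation, was above the bound throughout. Its signals were 1769, 1380 and 11034 in CD49+ samples, against 14911, 2795 and 6576 in CD49- samples (difference -1.11 ± 1.02). Among the sterol genes, 4 of the 9 measured were higher and 5 lower in CD49+ samples, with Npc1 and Npc2, which move cholesterol out of lysosomes, at -0.63 ± 0.71 and -0.29 ± 0.38.

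Of 10 xenobiotic and redox genes, 3 were higher and 7 lower in CD49+ samples. Gclc, the catalytic subunit for glutathione synthesis, differed by 1.99 ± 1.28 and Ahr, the dioxin receptor, by -2.04 ± 1.80. Of 11 mitochondrial haem and iron-sulfur genes, 9 were higher in CD49+ samples, with a median of 0.57, against 0.01 over all named genes. Of those 9, Cpox, Ppox and Slc25a38 were above the bound in no sample and have no measured direction. Urod of the haem pathway differed by 1.48 ± 0.85 and Nfs1, the cysteine desulfurase, by -1.74 ± 1.08. Some of the rises lay mostly in the MZ1484 pair, with 1 sample per group. Fech differed by 6.17 in MZ1484 and -0.0025 in MZ1468, Urod by 3.58 and 0.43, and Iscu by 1.35 and -0.63. Others were similar in both, such as Glrx5 (0.84 and 0.58) and Alas1 (0.52 and 0.59). Of 7 peroxisomal genes, 2 were higher and 5 lower in CD49+ samples, the lower ones including Pex19 (-0.66 ± 0.62) and Acaa1a (-0.78 ± 1.00). Of 5 ribosome recycling and initiation genes, 2 were higher and 3 lower. Hbs1l was lower (-0.82 ± 0.66) and Eif3a higher (0.48 ± 0.48).

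Between submissions, 4 partner genes passed the threshold in limma, against 4.05% of all tested genes and 7.59% of those shown on MOE430A, the design of all 4. They are named because they were called. Pelo, whose product works with Abce1 in splitting stalled ribosomes, rose in MZ1468: 2038 and 691 (CD49+) and 825 and 1371 (CD49-) in MZ1468 samples, against 17.96 (CD49+) and 37.1 (CD49-) in MZ1484 samples, a fitted difference of 4.42 ± 0.77 on the log2 scale (adjusted p = 0.0304). Its list did not rise as a whole: of 5 ribosome recycling and initiation genes, 2 were higher and 3 lower in MZ1468, with a median of -0.54. Both MZ1484 values of Pelo were under the bound, so its signal was at least 7.84-fold higher in MZ1468. Nqo1, a quinone reductase, was likewise under the bound in both MZ1484 samples and at least 21.9-fold higher in MZ1468 (adjusted p = 0.0257). Scarb1, the HDL receptor, rose by 5.07 ± 0.82 (adjusted p = 0.0285), with 1 of the 2 MZ1484 samples above the bound. Gstp1, a glutathione transferase, fell by 0.96 ± 0.18 (adjusted p = 0.033) and was bright in every sample. These were 1 of 5 ribosome genes, 1 of 6 sterol genes and 2 of 10 xenobiotic genes tested, and no call was made among the mitochondrial and peroxisomal genes or Tap1, Tap2 and Cftr. Without CD49+ replicate 3, CD49- replicate 2 or CD49- replicate 3, 0 of all tested genes were called between submissions, these 4 included.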

How the data were processed

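Expression was measured in 3 CD49+ and 3 CD49- samples on MOE430A and MOE430B arrays. The deposited values were linear intensity values, 1 signal per probe set, which the authors computed in MAS5 according to the labels (per the submitters' processing notes); its version, its settings and a genome build were not given in the sources used here, and detection calls were not used. Signals were transformed here from the deposited values to log2 after adding a pseudocount, set at the 25th percentile per chip design (27.0 on MOE430A, 140.0 on MOE430B), which understates changes of dim genes. Probe sets at or above the median mean log2 of their design entered limma (version 3.58.1, R version 4.3.3; lmFit, then eBayes with trend). P-values are two-sided, with Benjamini-Hochberg adjustment over each design and a threshold of 0.05. SE is limma's moderated standard error. Each design had its own scaling and was fitted by itself. The CD49 fit had no covariate, the submission fit kept the CD49 group, and the last fit held their product. The scripts were tested on simulated data.

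Symbols came from the platform's annotation, checked against the RefSeq gene table of GRCm38.p6. Signals on MOE430B ran higher, so that the choice by highest mean favours that design. Where all values of a group lay under the bound, a fold is given as "at least": on the log2 scale, the mean of the brighter group minus that of the dimmer one, with each dim array set at its bound or at its own value, whichever was higher. The number of arrays limits the precision, and PCR from so few cells adds variation.

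Members and lists were chosen with earlier results of these data known. Named in full were Abcg2, Abcb1a, Abcb1b, Abcc1, Abca1, Abcg1, Abcb10 and Abce1, genes above the bound on all 3 arrays of a CD49 group, and for each comparison the 5 tested genes per direction with the smallest p and an absolute log2 difference of at least 1. From each partner list the 2 genes with the smallest CD49 p were named. Some other probe sets are given, chosen after their values were seen. Of 47 probe sets not used to show a gene, 23 had the opposite sign of the CD49 difference, and of the 24 above the bound on at least 1 array, 11 did. Alternatives changed the pseudocount, filter, scaling, representing probe set, bound, model and samples.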

Additional observations from a re-analysis of the deposited data

Results flagged for a closer look

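The 21 ABC genes given in full were searched within the 4 MZ1468 samples for a highest or lowest sample whose gap to its nearest neighbour filled more of the whole log2 range than Dixon's 95% critical value allows. Chance gives this in about 1 in 20 groups of normal values, and 4 genes met it. The 21 genes were partly chosen by their values and share the same samples. How many of all genes meet the rule was not computed, so the count shows no excess in the family. CD49+ replicate 2 was the lowest sample for Abcb6, with a gap of 0.853 of the range, and for Abcb10, with 0.862. The same sample was the highest for Abce1, with 0.855. CD49+ replicate 3 was the lowest for Abcb1b, with 0.865, but all of its MOE430B values were under the background bound.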

How the results depend on the processing

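No ABC gene was called between CD49+ and CD49- samples under any alternative run (0 in each). For the submission comparison, 1 gene was called after quantile normalization, 2 without the CD49 group in the model and 0 to 3 when each sample was left out. The median CD49 difference ran from -0.0772 to 0.158 over the samples left out. The median submission difference was -0.34 after median centring, which moved the median of all genes to -0.14, against 0.02, and -0.35 after quantile normalization. Without single samples it ran from -0.25 to 0.0773. Without CD49+ replicate 3, CD49- replicate 2 or CD49- replicate 3, 0 of all 11807 genes were called for submission.

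Within MZ1468 the CD49 difference turned sign for Abca3 (-1.89), Abca4 (-0.31), Abcb1b (-0.53), Abcb8 (-0.44), Abcc1 (0.0751) and Abcg2 (0.13). A pseudocount at the median turned Abca3 (-0.11) and Abcb1b (-0.0189). Quantile normalization turned Abcc3 (0.14), and the MOE430A probe set, which was also the one of higher rank, turned Abcg1 (-0.42). Leaving out each sample gave ranges that crossed 0 for Abca1 (-0.11 to 0.50), Abca3 (-1.68 to 1.59), Abca4 (-0.56 to 1.5), Abcb10 (-1.11 to 0.25), Abcb1b (-0.66 to 0.47), Abcb8 (-0.12 to 0.70), Abce1 (-0.56 to 1.28), Abcf1 (-0.61 to 0.30), Abcf2 (-1.20 to 1.43), Abcf3 (-0.80 to 1.63) and Npc2 (-0.68 to 0.12), and for the submission difference of Abca5 (-7.35 to 0.44). The cause of these changes was not tested. With the second highest control as bound, 9 genes were above it in all 6 samples, and 8 at 1.5 times the bound, while 15 and 23 were above it in none. The scan day as a block was not run by itself, since it equals the submission. Arrays have no read depth; genes near the bound have only upper limits.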

Other observations

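Probe sets other than the representing ones gave further values. Abcc8 on MOE430A was above the bound in every sample, with 289, 198 and 123 in CD49+ samples, against 178, 153 and 220 in CD49- samples (difference 0.08 ± 0.60 on the log2 scale). Abcc5, a cyclic nucleotide exporter, had the most probe sets (10), and they did not share a direction. On MOE430A, 1 gave 657, 158 and 119 in CD49+ samples, against 205, 214 and 72.8 in CD49- samples, a difference of 0.57 ± 0.81. Of its 3 MOE430B probe sets, the representing one gave -0.85 ± 0.60. The others were under the bound throughout and gave 0.89 ± 0.40 and -0.01. A second Abcb10 probe set passed the bound in 2 CD49+ and 2 CD49- samples, with 140, 141 and 102 in CD49+ samples, against 30.5, 116 and 145 in CD49- samples.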
